A study of Homo sapiens with 6 samples.

Results

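MYC, MAX, FOXO1, FOXO3, AREG and WT1 were followed through an array experiment in MDA-MB-231 cells, as regulators that stand above the gene networks described for these cells and as close partners of such regulators. They were chosen by name, and every probe whose annotation names a RefSeq transcript of 1 of them was taken. This gave 11 of the 50599 probes and 6 of the 21743 genes that could be named on the arrays. MAX and FOXO3 had 3 probes each, AREG had 2, and MYC, FOXO1 and WT1 had 1. MDA-MB-231 is a human triple-negative breast cancer cell line with mesenchymal features. All cells were transfected by the same reverse transfection method, and RNA was examined 72 h later. A precursor of hsa-miR-205-5p was given to 1 group, a precursor of hsa-miR-214-3p to another and a scrambled miRNA precursor to the control group, with 2 arrays per group. No untransfected cells were analysed here, so every difference is relative to the scrambled control or to the other precursor.

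MYC is a transcription factor that drives genes of growth, ribosome production and metabolism, and it binds DNA only as a pair with MAX, which also pairs with the MXD proteins and MNT that oppose MYC. FOXO1 and FOXO3 are forkhead transcription factors that AKT and SGK kinases phosphorylate, after which 14-3-3 proteins hold them in the cytoplasm. AREG encodes amphiregulin, a membrane-bound ligand of the EGF receptor that the protease ADAM17 releases from the cell surface. WT1 is a zinc finger transcription factor of the developing kidney and gonad that can act as an activator or a repressor.

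The 2 mature miRNAs are shown because they define the treated groups. Their sequences were taken from RefSeq (GRCh38.p14), where hsa-miR-205-5p lies at chr1:209432166-209432187 on the + strand and hsa-miR-214-3p at chr1:172138816-172138837 on the - strand. The capitals mark the seed, bases 2 to 8, by which a miRNA mainly recognises its targets, and the 2 seeds differ.
hsa-miR-205-5p: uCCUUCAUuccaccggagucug
hsa-miR-214-3p: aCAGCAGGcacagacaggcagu

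Levels are given as normalized log2 signal, the log2 of an array's processed signal minus the 75th percentile of that array, so that a probe at 0 lay at that percentile and a difference of 1 was a 2-fold difference. A level on this scale compares the same probe between arrays and not one probe with another. The probes of a gene are numbered from the brightest to the dimmest. Each array held 58717 spots that were not controls, and 35.4% to 42.2% of them passed the scanner's test of being well above background, with 0 saturated. Of the 11 probes of the regulators, 10 passed the filter on dim probes and 9 cleared background on each of the 6 arrays. Of markers chosen for the cell line, all 6 that it should hold at a high level (VIM, CD44, AXL, CAV1, MSN and LGALS1) were well above background on every array. Another 6 were chosen as genes that it should lack or hold at a low level. Of these, ESR1 and PGR were well above background on 0 arrays. The other 4, the epithelial markers ERBB3, CDH1, EPCAM and GATA3, were so on all 6 arrays. By their place in the scan, both hsa-miR-214-3p arrays lay in one column of the slide and the other 4 in the other column, so that place on the slide and this precursor cannot be told apart.

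**Figure D1:**
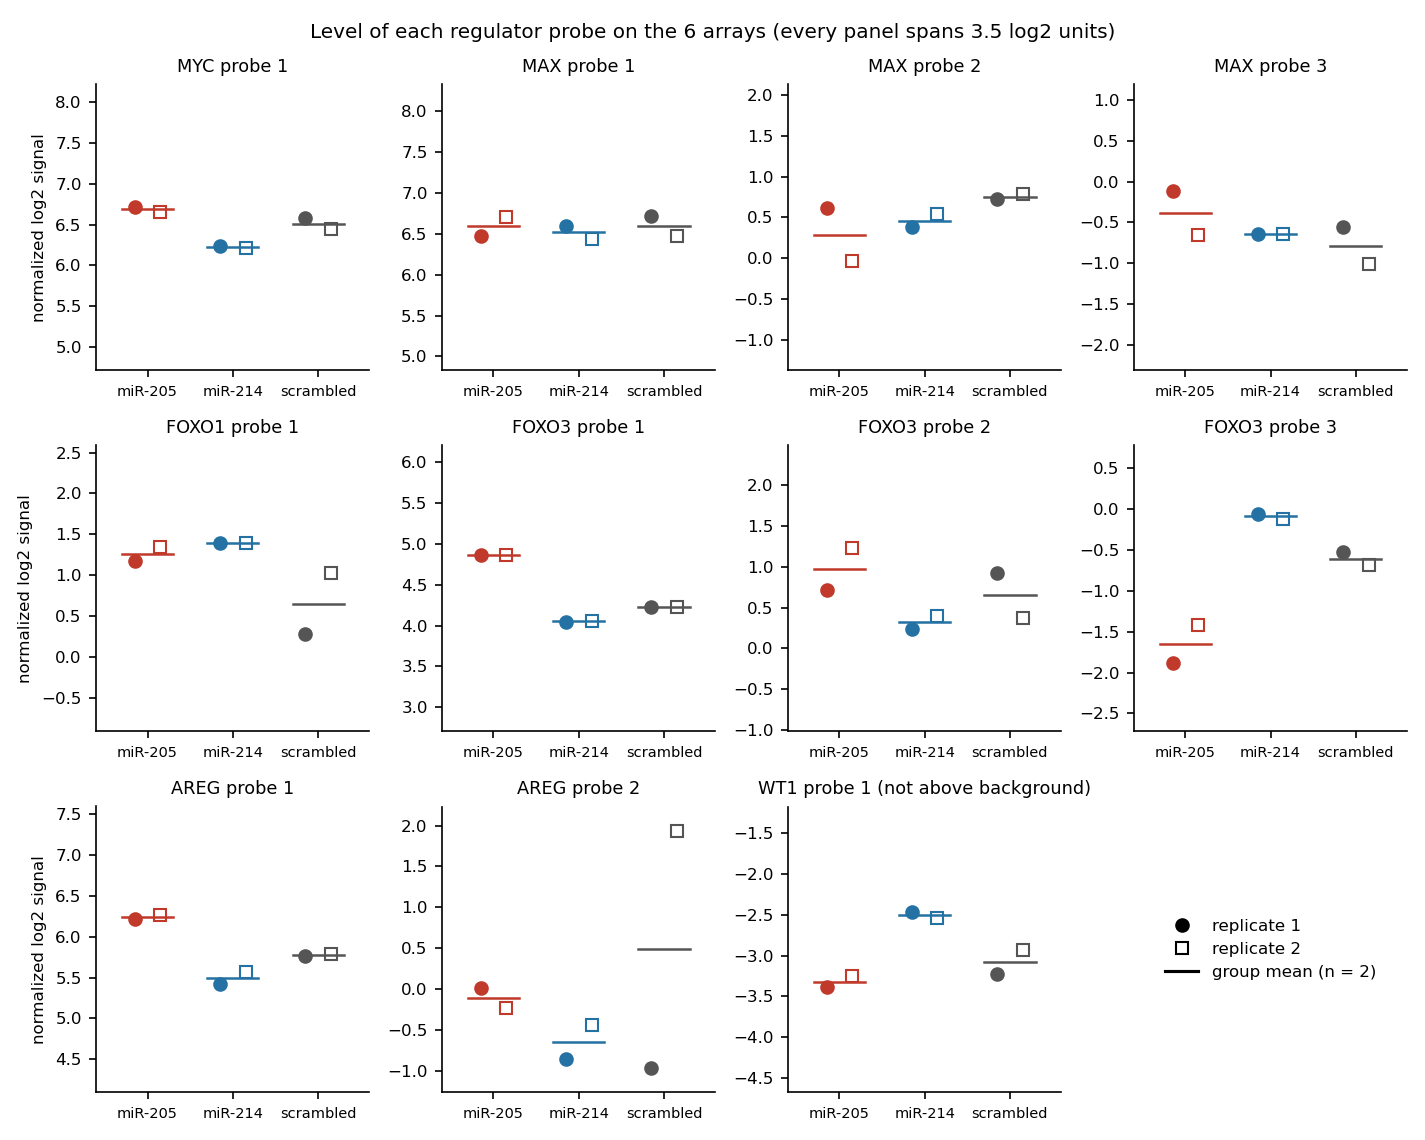
Normalized log2 signal of each regulator probe (y axis, every panel spanning the same number of log2 units) in the 3 groups (x axis), with filled circles for replicate 1, open squares for replicate 2 and lines for group means (n = 2). The replicates of FOXO3 probe 1 and AREG probe 1 lie close together, while the control replicates of AREG probe 2 lie at -0.96 and 1.93.

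MYC was measured by a probe printed 10 times on each array, and all 60 spots were well above background. Spots of 1 array varied with a coefficient of variation between 5.67% and 10.5%. The normalized log2 signal of MYC was 6.72 and 6.66 with hsa-miR-205-5p, 6.24 and 6.21 with hsa-miR-214-3p, and 6.58 and 6.44 in the scrambled control. Both hsa-miR-205-5p arrays lay above both control arrays, and both hsa-miR-214-3p arrays lay below them. The size was small in each case. MYC was 0.18 log2 units above the control with hsa-miR-205-5p (95% interval -0.21 to 0.56, adjusted p = 0.438, limma) and was at -0.29 with hsa-miR-214-3p (-0.67 to 0.10, adjusted p = 0.332). The 2 precursors stood 0.46 apart (0.08 to 0.85, adjusted p = 0.0701), and neither neighbour in the order hsa-miR-205-5p, scrambled control, hsa-miR-214-3p differed from the next beyond the error of the fit. These values moved with the scaling. The first was -0.0010 after quantile normalization, and scaling to the array medians gave -0.21, -0.45 and 0.24 for the 3 comparisons of MYC in the order above.

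**Figure D2:**
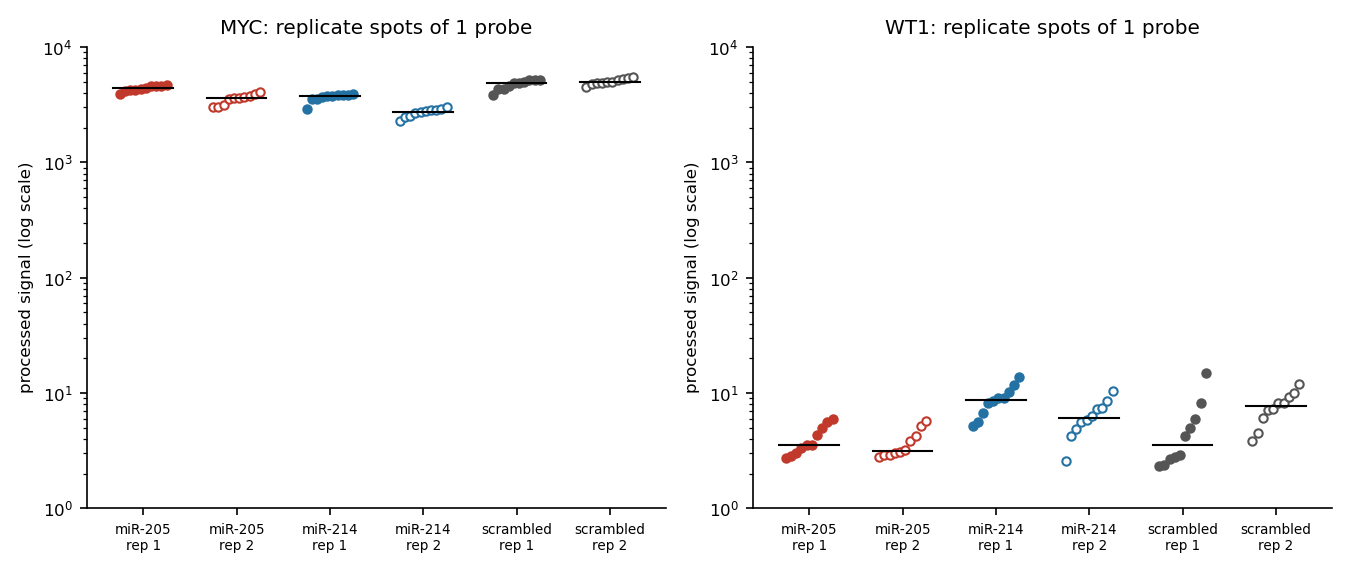
Processed signal (log axis) of the single probes of MYC (left) and WT1 (right), each printed on 10 spots per array, with 1 point per spot and a line at the median of each array. All MYC spots lie between 2291 and 5523, and the WT1 spots lie between 2.33 and 14.8.

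MAX, the partner of MYC, gave 3 probes that are annotated to different RefSeq transcripts of the gene. On the brightest, the signal was 6.48 and 6.71 with hsa-miR-205-5p, 6.60 and 6.43 with hsa-miR-214-3p, and 6.72 and 6.48 in the scrambled control. The 3 groups overlapped, and the difference from the control was -0.01 (-0.47 to 0.46, adjusted p = 0.978) for hsa-miR-205-5p and -0.08 (-0.55 to 0.38, adjusted p = 0.824) for hsa-miR-214-3p. MAX probe 2 lay at 0.61 and -0.03 with hsa-miR-205-5p, at 0.38 and 0.54 with hsa-miR-214-3p, and at 0.72 and 0.79 in the control. Here the controls were the 2 highest arrays, but the difference of -0.47 for hsa-miR-205-5p had an adjusted p of 0.231 and that of -0.29 for hsa-miR-214-3p an adjusted p of 0.531. MAX probe 3 ran from -1.01 to -0.12 over the 6 arrays, with differences of 0.40 and 0.14 and adjusted p of 0.307 and 0.780. Thus 0 of the 3 MAX probes were called by limma in any comparison, with 0 at an unadjusted p under 0.05 too, and the intervals of the brightest hold differences short of 2-fold only.

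The control replicates of FOXO1 differed more than those of the other groups did. Its signal was 1.17 and 1.34 with hsa-miR-205-5p, 1.40 and 1.39 with hsa-miR-214-3p, and 0.28 and 1.02 in the scrambled control. All 4 precursor arrays lay above both control arrays. FOXO1 was 0.61 above the control with hsa-miR-205-5p (SE 0.27, adjusted p = 0.171) and 0.74 above it with hsa-miR-214-3p (SE 0.27, unadjusted p = 0.0382, adjusted p = 0.195). The precursors differed from each other by -0.14 (-0.82 to 0.55, adjusted p = 0.718). Without scrambled control replicate 2, whose FOXO1 signal was the higher, the difference for hsa-miR-214-3p was 1.12 with an adjusted p of 0.0287, so that 1 control array decided this call.

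FOXO3 had the 1 regulator probe that was called, its dimmest, and that probe passed the filter on dim probes only through the groups where it was high. The 3 FOXO3 probes, all annotated to 1 RefSeq transcript, did not lie on the same side of the control with hsa-miR-205-5p. The brightest probe gave 4.86 and 4.87 with hsa-miR-205-5p, 4.04 and 4.06 with hsa-miR-214-3p, and 4.23 and 4.23 in the scrambled control. Both hsa-miR-205-5p arrays were the highest, and the replicates differed far less than the groups. FOXO3 probe 1 was 0.63 above the control with hsa-miR-205-5p (SE 0.15, adjusted p = 0.0385), at -0.18 with hsa-miR-214-3p (SE 0.15, adjusted p = 0.512), and 0.81 higher with hsa-miR-205-5p than with hsa-miR-214-3p (adjusted p = 0.0140). These are 1.55-fold and 1.76-fold differences for the first and the last, which passed the adjusted p but not the 2-fold limit. Scaling to the array medians left 0.24 of the difference from the control (adjusted p = 0.414) and 0.59 of that between the precursors (adjusted p = 0.0711), and normexp background correction gave 0.38 (adjusted p = 0.0900) against the control. Over all the settings tried, the adjusted p of FOXO3 probe 1 against the control ran from 0.0153 to 0.414. FOXO3 probe 2 gave 0.72 and 1.23, then 0.24 and 0.40, and 0.93 and 0.37 in the same order of groups. Its control arrays overlapped both precursors, and the difference of 0.32 for hsa-miR-205-5p had an adjusted p of 0.427.

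FOXO3 probe 3 went the other way. Its signal was -1.89 and -1.41 with hsa-miR-205-5p, -0.05 and -0.12 with hsa-miR-214-3p, and -0.52 and -0.69 in the control. Both hsa-miR-205-5p arrays were the lowest and were not well above background, so their level is only a bound. With probes required to clear background on all 6 arrays, this one was not tested and 0 regulator probes were called by limma. Measured against that bound, FOXO3 probe 3 was at least 2.00-fold lower with hsa-miR-205-5p than in the control (fitted log2 fold change -1.05, SE 0.21, adjusted p = 0.0281) and at least 2.86-fold lower than with hsa-miR-214-3p (fitted -1.56, adjusted p = 0.00717). For hsa-miR-214-3p against the control, its difference was 0.52 (adjusted p = 0.231). The fall against the control rested on this dim signal. It was -0.13 with an adjusted p of 0.498 after normexp background correction, and it kept its adjusted p under 0.05 and its 2-fold size in 0 of the fits that left out 1 array. Since 1 probe was higher and another lower, no single direction was given to FOXO3.

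**Figure D3:**
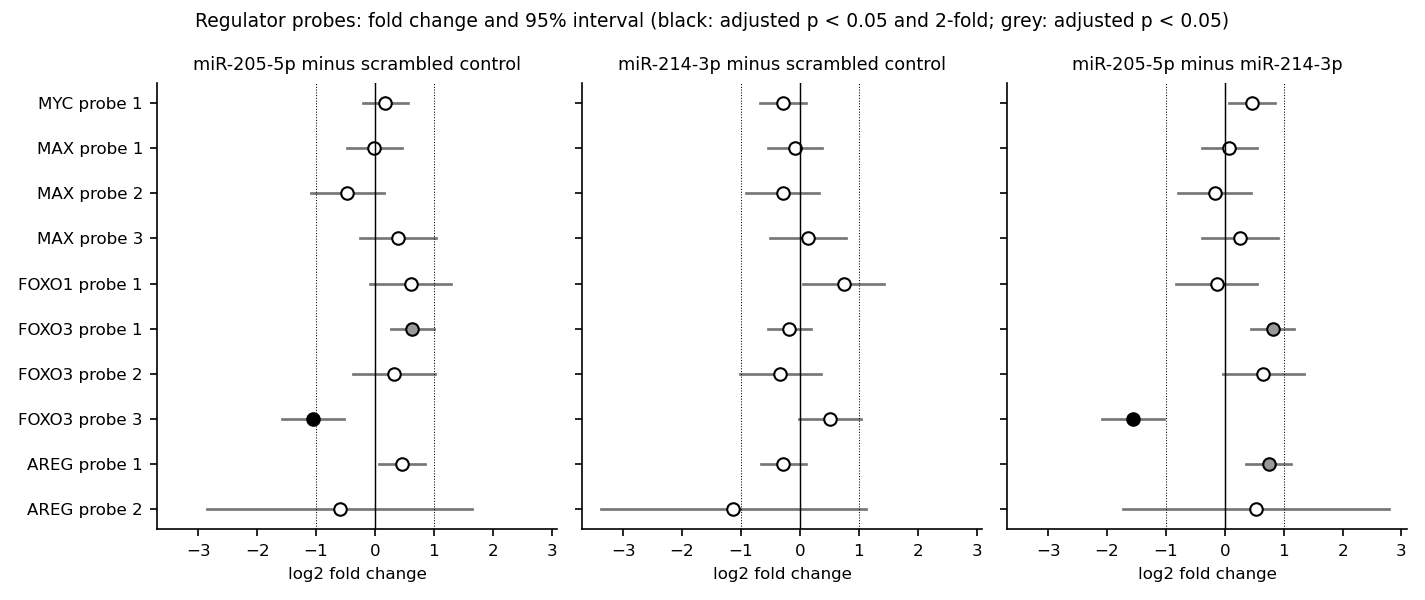
Log2 fold change (x axis) of the 10 regulator probes that were tested (y axis) in the 3 comparisons, with bars for the 95% interval from limma; black points passed the adjusted p and the 2-fold limit, grey points the adjusted p alone. FOXO3 probe 3 is the black point, at -1.05 and -1.56, and FOXO3 probe 1 and AREG probe 1 give the grey ones.

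The AREG promoter is shown because AREG was the secreted factor among the regulators and its start carries a cAMP response element, a motif bound by CREB. The sequence is that of RefSeq (GRCh38.p14, chr4:74444886-74445185, + strand), from 250 bases before the start of the gene to 50 bases after it, and the capitals mark the motif TGACGTCA, which begins 65 bases before the start.
AREG promoter: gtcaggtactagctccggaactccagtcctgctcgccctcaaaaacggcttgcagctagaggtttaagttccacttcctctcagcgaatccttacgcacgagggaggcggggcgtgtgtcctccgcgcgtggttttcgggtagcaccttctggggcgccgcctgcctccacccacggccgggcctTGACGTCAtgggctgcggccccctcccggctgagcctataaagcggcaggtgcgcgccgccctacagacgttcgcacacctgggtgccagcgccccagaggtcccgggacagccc
Of the 35116 promoters of this length in the table, 1.85% held these 8 letters, read on both strands. Among the 12 promoters of MAX, FOXO1, FOXO3, AREG and WT1, the E-box CACGTG of MYC and MAX occurred in 0 (7.26% of all promoters), the letters GCGGGGGCG, which EGR1 and WT1 can bind, in 0 (5.07%), and the forkhead letters GTAAACA in 1 (3.42%), the promoter of WT1 farthest downstream. A match of letters is a description and not a binding site.

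AREG itself was measured by a bright and a dim probe. The bright one gave 6.21 and 6.27 with hsa-miR-205-5p, 5.42 and 5.57 with hsa-miR-214-3p, and 5.76 and 5.79 in the scrambled control. The 3 groups did not overlap, with hsa-miR-205-5p on top and hsa-miR-214-3p at the bottom. AREG probe 1 was 0.46 above the control with hsa-miR-205-5p (SE 0.15, adjusted p = 0.0918) and was at -0.28 with hsa-miR-214-3p (SE 0.15, adjusted p = 0.334). Between the precursors it was 0.74 higher with hsa-miR-205-5p (1.67-fold, SE 0.15, adjusted p = 0.0203), a difference below the 2-fold limit. After scaling to the array medians the difference of AREG probe 1 from the control was 0.071 (adjusted p = 0.821, with a range of 0.0416 to 0.821 over all settings), and that between the precursors was 0.52 (adjusted p = 0.0906). AREG probe 2 gave 0.01 and -0.24, then -0.86 and -0.44, while the control arrays stood at -0.96 and 1.93. This control spread, a processed signal of 25.8 on replicate 1 against 221 on replicate 2, was larger than any difference between groups. With both controls the difference for hsa-miR-205-5p was -0.60 (-2.85 to 1.65, adjusted p = 0.656). It was -2.05 (adjusted p = 0.0126) without control replicate 1 and 0.85 (adjusted p = 0.0926) without control replicate 2, so the dim probe gives no direction for AREG.

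WT1 was not detected. Its probe was printed 10 times on each array, and only 2 of the 60 spots were well above background, 1 on hsa-miR-214-3p replicate 1 and 1 on scrambled control replicate 1. The median processed signal over the spots of an array lay between 3.16 and 8.74. On the normalized scale the arrays read -3.39 and -3.25 with hsa-miR-205-5p, -2.46 and -2.54 with hsa-miR-214-3p, and -3.23 and -2.93 in the control. These are levels not well above background, so they have no order that can be read as expression, and no fold change is given. WT1 RNA in these cells was below what this probe could measure, which does not show that it was absent.

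Over the 10 tested probes, the shares called were close to those of all probes. Against the scrambled control, hsa-miR-205-5p changed 1 of 10 regulator probes at an adjusted p under 0.05 and at least 2-fold, while 12.2% of all 18468 tested probes were called. For hsa-miR-214-3p, 0 of 10 were called by limma, against 2.67% of all probes. At an unadjusted p under 0.05 with no limit on fold, 1 of 10 passed there (FOXO1), beside 22.6% of all probes, and the methods' t-test called 0. Between the precursors, 1 of 10 was called, against 19.9% of all probes. In the comparisons that involve hsa-miR-205-5p, 3 of 10 had an unadjusted p under 0.05 against the control and 4 of 10 against hsa-miR-214-3p, beside 37.2% and 46% of all probes. By the adjusted p alone, 2, 0 and 3 of the 10 passed in the 3 comparisons, beside 19.3%, 2.81% and 31.8% of all probes. Groups that did not overlap were seen in 6, 6 and 7 of the 10 probes in these comparisons, while 62.3%, 55.3% and 78.3% of all probes did not overlap. The median difference over the 10 probes was 0.25, -0.23 and 0.36, beside 0.05, -0.01 and 0.09 over all probes. The comparisons share arrays, so these values are not independent of each other.

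Genes known as partners, controls and targets of the regulators were tested in the same fit. Of the 144 that were listed, 122 had a probe that passed the filter. With hsa-miR-205-5p, 12 were lower and 9 higher than in the scrambled control, or 17.2% of those tested. Over all 11974 genes, 12.8% were called, 7.98% lower and 4.78% higher. With hsa-miR-214-3p, 2 were lower and 2 higher (3.28%, beside 3.12% of all genes, 2.03% lower and 1.09% higher). Between the precursors, 21 were lower and 9 higher with hsa-miR-205-5p (24.6%, beside 20.5% of all genes, 11.3% lower and 9.18% higher). On the probe reported, every one of these calls kept its sign in all the fits tried. Other probes of some genes, such as NOP56 and ERBB3, could lie on the other side, as given below. The number called did not hold. Without hsa-miR-205-5p replicate 2, 0 of the 122 genes were called for hsa-miR-205-5p against the control, and without scrambled control replicate 2, 18 were called for hsa-miR-214-3p. The 4 calls for hsa-miR-214-3p became 0 in the fits that left out any other single array, in the fit on the 4 arrays compared, with the replicate block and with no filter on dim probes. Scaling to the array medians gave 27 lower and 3 higher for hsa-miR-205-5p against the control, with the median of all probes at -0.33.

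**Figure D4:**
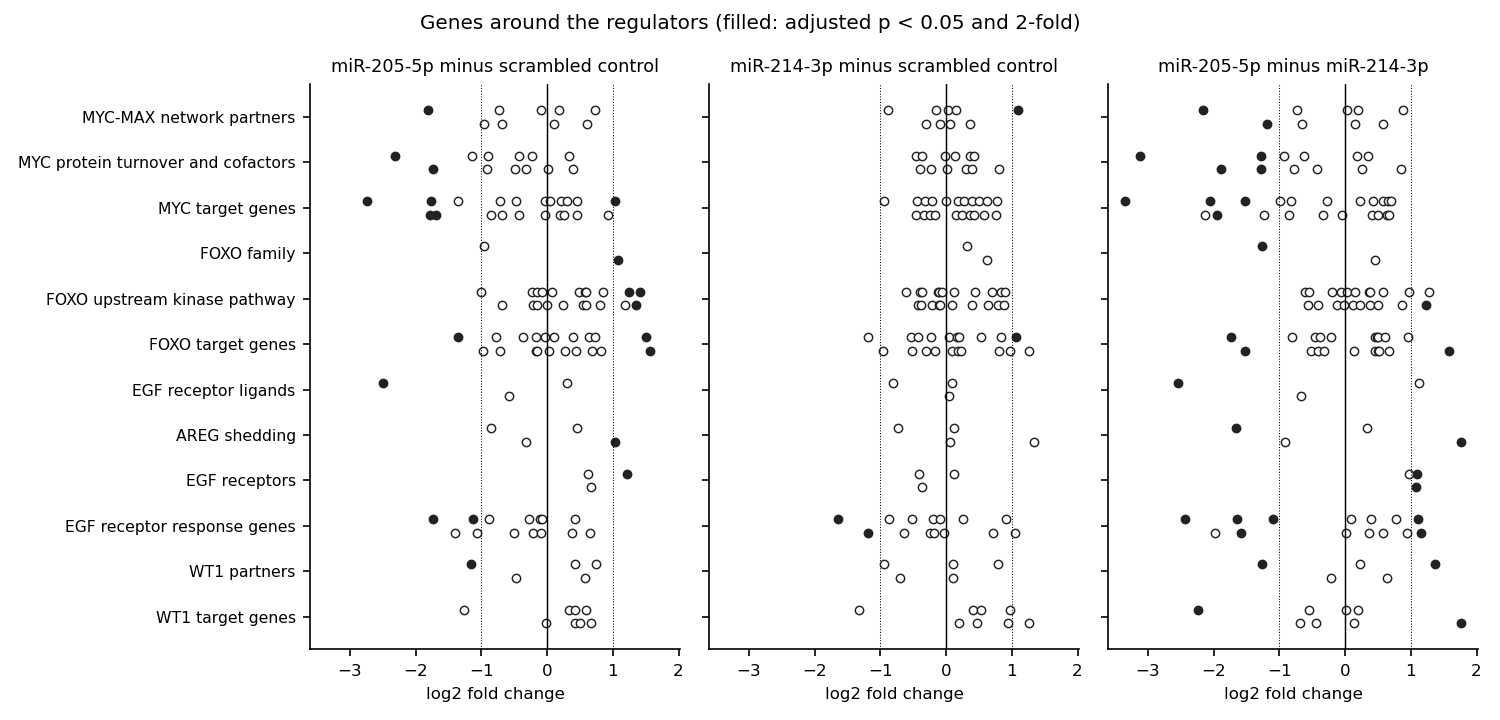
Log2 fold change (x axis) of 122 genes in 12 lists of partners, controls and targets of the regulators (y axis) in the 3 comparisons, 1 point per gene, filled where the gene passed the adjusted p and the 2-fold limit. Filled points of the MYC lists lie mostly to the left with hsa-miR-205-5p, and few points are filled for hsa-miR-214-3p.

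Around MYC, 42 genes were tested. With hsa-miR-205-5p, 7 were lower and 1 higher than in the control, or 19% beside 12.8% of all genes (7.98% lower and 4.78% higher). After scaling to the array medians, 14 were lower and 0 higher. The median log2 fold change of the 42 was -0.37. This median was -0.098 without scrambled control replicate 2 and -0.76 after scaling to the array medians. Among 21 target genes, 4 fell. NOP56, a core protein of box C/D snoRNPs, gave a log2 fold change of -2.73 (adjusted p = 0.0125), but its other probes stood at 0.58 and 0.70. ENO1, a glycolytic enolase, went from 8.36 ± 0.15 in the control to 6.57 ± 0.11 (SD, n = 2), a change of -1.79 (adjusted p = 0.00800). POLR3D, a subunit of RNA polymerase III, changed by -1.76, and ID2, an inhibitor of differentiation, by -1.68, with -2.24 on its other probe. TERT, the catalytic subunit of telomerase, was the 1 that rose (1.03), and it is named beyond the genes chosen by size. Its value went down to 0.64 over the settings tried. Of 12 turnover factors and cofactors, AURKA, a mitotic kinase that also stabilises MYC proteins, changed by -2.32 and RUVBL1, an ATPase of chromatin complexes, by -1.74. Of the 9 network partners, MLXIPL, a glucose-responsive partner of MLX, did not clear background on the hsa-miR-205-5p arrays, which set a bound of at least 1.54-fold lower, and it passed the filter only through the other groups. The antagonists of MYC were not called, with MXD1 at 0.73 (adjusted p = 0.0421, under 2-fold) and its other probe at -0.24, MXD4 at -0.96 (adjusted p = 0.0274, under 2-fold), MNT at 0.60 and its other probe at 1.22, MXI1 at 0.18 and MXD3 at -0.68. With hsa-miR-214-3p, 1 of the 42 was called (2.38%, beside 3.12% of all genes), MLX (1.09, adjusted p = 0.0473).

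The E-box was looked up in the RefSeq promoters of the MYC target genes, 19 of 22 of which had a promoter in the table. Among these, 9 held CACGTG (47.4%), beside 8.77% of 27305 genes. The search of the listed genes passed over the promoters of a single chromosome, and that of all genes did not. These shares were therefore not counted alike. The list was drawn up as known MYC targets, so its share is a description. TERT was among the 9, and NOP56, ENO1 and ID2 were not. No reading is given for POLR3D.

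Around FOXO1 and FOXO3, 43 genes were tested, and 16.3% were called with hsa-miR-205-5p against the control, beside 12.8% of all genes. Of the 43, 6 were higher and 1 lower, while 4.78% of all genes were higher and 7.98% lower. The split of the 43 turned to 3 higher and 7 lower when arrays were scaled to their medians. BBC3, which encodes the pro-apoptotic protein PUMA, rose by 1.56 from 3.13 ± 0.10 to 4.69 ± 0.04 (SD, n = 2, adjusted p = 0.00832). CITED2, a transcriptional coregulator, rose by 1.51, with 0.91 on its other probe. YWHAG, a 14-3-3 protein, rose by 1.41. Beyond the genes chosen by size, and named after their values were seen, SFN, another 14-3-3 protein, rose by 1.35, the kinase SGK1 by 1.25 and the family member FOXO6 by 1.07, while PDK4, a kinase that restrains pyruvate oxidation, fell by 1.35. FOXO6 went down to 0.66 over the settings tried. FOXO4 gave -0.96 (adjusted p = 0.0447) and did not clear background with this precursor, which left a bound of at least 1.26-fold lower, and it too passed the filter only through the other groups. The kinases AKT1 and AKT2 gave -0.16 and -0.69. Many target genes did not pass the test, among them CDKN1B (-0.72, under 2-fold), CDKN1A (-0.98), BCL2L11 (-0.16) and SOD2 (0.82, under 2-fold). With hsa-miR-214-3p, BBC3 was the 1 called gene of the 43 (2.33%, beside 3.12% of all genes), at 1.06 (adjusted p = 0.0405).

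Around AREG, 24 genes were tested, and 3 fell and 2 rose with hsa-miR-205-5p (5 and 0 after scaling to the array medians). The share called was 20.8%, beside 12.8% of all genes. HBEGF, another ligand of the EGF receptor, fell by 2.50 on the log2 scale, from 3.28 ± 0.85 to 0.78 ± 0.01 (SD, n = 2, adjusted p = 0.0157). TGFA gave -0.58 (adjusted p = 0.0521) and EREG 0.31 (adjusted p = 0.791), whose hsa-miR-205-5p replicates had an SD of 1.75. Of the receptors, ERBB3 rose by 1.21 (adjusted p = 0.0125), with its other probe at 0.05, ERBB2 gave 0.67 (adjusted p = 0.0360, under 2-fold), and EGFR gave 0.62 (adjusted p = 0.196). RHBDF2, which carries ADAM17 to the cell surface, rose by 1.03, its relative RHBDF1 gave -0.86 (adjusted p = 0.0323, under 2-fold), and ADAM17 gave -0.32 (adjusted p = 0.607). Of 14 response genes, SPRY4, a feedback inhibitor, fell by 1.74, with -0.47 on its other probe, and FOSL1, an AP-1 subunit, fell by 1.12. Over the settings tried, RHBDF2 went down to 0.63 and SPRY4 came up to -1.07. FOSL1, RHBDF2, RHBDF1 and ADAM17 are named beyond the genes chosen by size. The controls of HBEGF, SPRY4, AURKA and NOP56 were far apart, with an SD between 0.81 and 0.95. Of the 4 epithelial markers measured, 3 rose with hsa-miR-205-5p, EPCAM by 2.40, CDH1 by 1.96 and ERBB3 as above, while GATA3 gave 0.31 (adjusted p = 0.291). The summed signal of the 6 markers that the line should lack or hold low, ERBB3 among them, was 12.3 to 15.4 times the 75th percentile with hsa-miR-205-5p, 4.23 to 4.72 with hsa-miR-214-3p and 4.40 to 4.41 in the control. Of 3 markers of cells that the culture should not hold, ALB was well above background on 0 arrays, PTPRC on 2 and PECAM1 on 3, and their summed signal was 0.681 to 0.692 with hsa-miR-205-5p, 0.671 to 0.805 with hsa-miR-214-3p and 0.895 to 1.08 in the control. The control sum was the highest and came mostly from PECAM1, while at most 1 of the 3 markers cleared background on any array of the precursor groups, whose sums have no order between them. PECAM1, an endothelial marker, was at least 2.26-fold lower with hsa-miR-205-5p than in the control (fitted -1.84, adjusted p = 0.00899), clearing background on 2 of 2 control arrays and 0 of 2 hsa-miR-205-5p arrays. PECAM1 passed the filter only through the control group, where it was high, so its adjusted p gives no support of its own. The leukocyte marker PTPRC had a mean of -1.45 with hsa-miR-205-5p and -2.38 in the control, with 1 array of each group above background. The hepatocyte marker ALB read -3.21 and -4.46, levels below background that have no order. The part of these markers in the result was not tested.

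With hsa-miR-214-3p, 2 response genes of the EGF receptor were lower than in the control. They were the only calls among the 24 AREG genes (8.33%, beside 3.12% of all genes). ERRFI1, a feedback inhibitor of the receptor, fell by 1.65, from a mean of 6.61 to one of 4.95 (n = 2 each, adjusted p = 0.0258), and EGR1, an immediate early transcription factor, fell by 1.18 (adjusted p = 0.0405). Each was called in 9 of 18 fits, the reported one included, while BBC3 and MLX, which rose with this precursor, were called in 6. The ligands HBEGF and TGFA gave 0.04 and 0.10, EREG gave -0.81, and the receptors EGFR, ERBB2 and ERBB3 gave -0.36, -0.41 and 0.12, with no adjusted p under 0.05 on these probes. The other probes of EGFR ran from -0.21 to 0.91, and that of ERBB3 gave 0.73.

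Around WT1, 13 genes were tested, 5 partners and 8 reported targets. With hsa-miR-205-5p, 1 was called (7.69%, beside 12.8% of all genes): HTRA2, a mitochondrial protease that can cleave WT1, fell by 1.16 (adjusted p = 0.0244). The other partners were WTAP, part of the m6A writer complex, at -0.48, the corepressor BASP1 at 0.58, PAWR at 0.74 and WTIP at 0.42. Of the 8 targets, 0 were called by limma for either precursor against the control, beside 12.8% and 3.12% of all genes. In a direct comparison of the precursors, VEGFA, an angiogenic factor, was 1.76 higher (adjusted p = 0.00914) and STIM1, a calcium sensor, stood at -2.24 (adjusted p = 0.0371) with hsa-miR-205-5p, though WT1 itself stayed below detection.

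In the direct comparison of the precursors, of the 42 MYC genes, 10 were lower and 0 higher with hsa-miR-205-5p than with hsa-miR-214-3p, among them NOP56 (-3.35, with its other probes at -0.25 and -0.13), AURKA (-3.12) and ENO1 (-2.06, adjusted p = 0.00384). MLXIPL, again below background on the hsa-miR-205-5p arrays, was at least 1.97-fold lower. Over all genes, 20.5% were called in this comparison, 11.3% lower and 9.18% higher. The 10 MYC genes became 5 without hsa-miR-214-3p replicate 1, 3 without hsa-miR-214-3p replicate 2 and 4 after normexp. Of the 24 AREG genes, 6 were lower, among them HBEGF (-2.54), and 5 were higher, among them RHBDF2 (1.76), ERBB2 (1.08, adjusted p = 0.00758) and ERBB3 (1.09, with its other probe at -0.68). ETV5, an ETS factor, was among the 6. It cleared background on 0 of 2 hsa-miR-205-5p, 1 of 2 control and 2 of 2 hsa-miR-214-3p arrays, so that it passed the filter only through the group where it was high, and its bound was at least 1.31-fold lower. With probes required to clear background on all 6 arrays, 5 AREG genes were lower and 5 higher. The split was 8 lower and 1 higher after scaling to the array medians, 2 and 3 after normexp, 1 and 0 without hsa-miR-214-3p replicate 1, and 0 and 0 without hsa-miR-214-3p replicate 2. Of the 43 FOXO genes, 3 were lower, among them PINK1, a mitochondrial kinase (-1.74), and 2 were higher. FOXO4 was among the 3 and cleared background on 0 of 2 hsa-miR-205-5p arrays, which left a bound of at least 1.56-fold lower. With the filter for all 6 arrays, 2 FOXO genes were lower and 3 higher, and without hsa-miR-214-3p replicate 2 there were 0 of each.

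The genes whose pattern over the 6 arrays came closest to that of each regulator were taken by the root mean square difference of centred normalized log2 signal. BBS5, ITGAV and EMC7 came closest to MYC, at 0.030, 0.034 and 0.036. NDUFS1, PCCA and LMCD1 came closest to AREG probe 1 (0.029 to 0.056), CMC4, FUT8 and USO1 to FOXO3 probe 1 (0.042 to 0.047), POLR2J2, RANBP3 and ZNHIT1 to MAX probe 1 (0.052 to 0.055), and NMT2, SCPEP1 and GPN1 to FOXO1 (0.054 to 0.085). Among the regulators themselves, FOXO3 probe 1 and AREG probe 1 were the closest pair, at 0.082, and AREG and FOXO1 the least alike, at 0.502. With 6 arrays in 3 groups, such likeness describes these arrays and is no test.

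**Figure D5:**
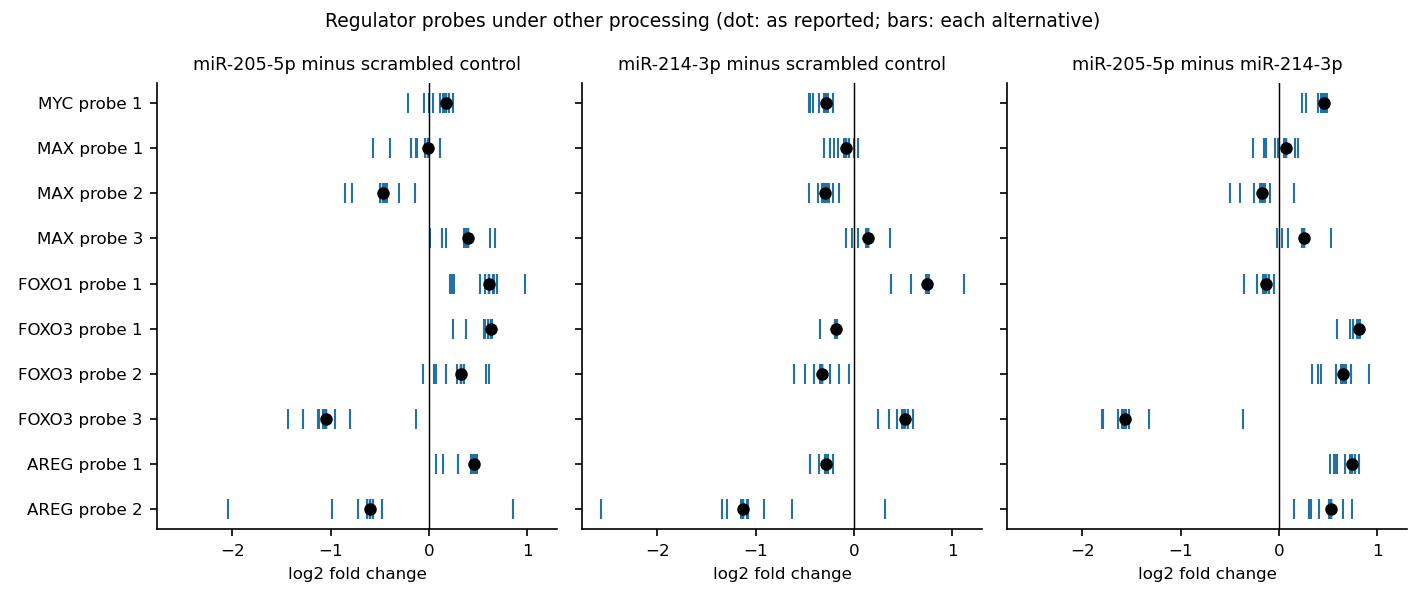
Log2 fold change (x axis) of the 10 tested regulator probes (y axis) in the 3 comparisons, as reported (dots) and under each other way of processing or with an array left out (bars). AREG probe 2 spreads from -2.05 to 0.85 for hsa-miR-205-5p against the control, while FOXO3 probe 1 and AREG probe 1 stay on one side of 0 and reach down to 0.24 and 0.071.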

How the data were processed

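RNA of MDA-MB-231 cells was labeled with Cy3 and hybridized to Agilent SurePrint G3 Human GE arrays. The authors deposited Feature Extraction 11.0 output, whose processed signal is a background-subtracted intensity per spot, and a table of log2 values of 50739 probes whose columns share 1 median, used here as an alternative. The labels call the samples replicas only, so p-values may measure technical spread. In R 4.3.3 with limma 3.58.1, control and outlier spots (245 to 463 per array) were dropped, spots of a probe averaged, log2 taken and each array's 75th percentile (35.1 to 58.0) subtracted. A probe was kept (18468) if both arrays of some group showed it well above background. Gene names came from RefSeq (GRCh38.p14) for 83.3% of these; a gene in a list is its brightest kept probe. limma's lmFit and eBayes used all 6 arrays (3 residual and 2.47 prior degrees of freedom), p-values were adjusted over all kept probes after Benjamini and Hochberg, and a call needed an adjusted p under 0.05 and 2-fold. A probe not well above background on a whole group has a bound: the brighter mean against, per array, the higher of the lowest signal well above background and its own. The number of arrays limits the precision. The regulators and lists were chosen with earlier results of these data known. All probes of the regulators were named, and of listed genes up to 12 called per comparison by size, with partners of MYC and WT1 and ligands and receptors of AREG. Some other listed genes were named beyond this rule. The scripts were tested on simulated data. Alternatives were other scalings, background correction, filters, fits and tests, and each array left out. Same-numbered replicates did not deviate together (r = 0.00812, -0.0482 and 0.107).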

Additional observations from a re-analysis of the deposited data

How the results depend on the processing

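With 2 arrays per group, the calls depended on single arrays and on how dim signal was treated. For hsa-miR-205-5p against the scrambled control, the 1 regulator probe called became 0 under normexp, no filter on dim probes, the filter for all 6 arrays, a fit on the 4 arrays alone, the replicate block, and the methods' t-test before and after adjustment, and 2 with no limit on fold change. Between the precursors the 1 became 0 under normexp, the stricter filter and the adjusted t-test, and 3 with no limit on fold change. Leaving out 1 array gave 0 to 1 regulator probes in each of the 3 comparisons; without scrambled control replicate 1 the called probe was AREG probe 2, and without scrambled control replicate 2 FOXO1 was called for hsa-miR-214-3p.

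Of listed genes, the 21 called for hsa-miR-205-5p against the control became 5 with no filter, 9 on the 4 arrays, 38 with no limit on fold change, 0 under the adjusted t-test, and 0 to 30 when 1 array was left out. The 4 called for hsa-miR-214-3p became 2 under scaling to the median, 0 with no filter, 0 on the 4 arrays, 0 with the replicate block, 0 under the adjusted t-test, 9 at an unadjusted p, and 0 to 18 when 1 array was left out. The 30 called between the precursors became 15 under normexp and 15 with no filter (14 of the 122 genes tested as reported, since dropping the filter adds genes), and 3 to 34 when 1 array was left out. The replicate numbers did not pair the samples. With them as a block, 18, 0 and 30 listed genes and 0, 0 and 1 regulator probes were called in the 3 comparisons.

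Over all probes, the 2250, 494 and 3678 calls in the 3 comparisons became 468, 0 and 1841 with no filter, 991, 289 and 1393 under normexp, and 858, 0 and 4188 on the 4 arrays. The adjusted t-test gave 0, 0 and 2237. Without hsa-miR-205-5p replicate 2, 0 probes were called for hsa-miR-205-5p against the control, and without scrambled control replicate 2, 1767 were called for hsa-miR-214-3p. The share of calls that were lower was 66.0%, 63.0% and 58.0%. It moved to 85.0%, 84.4% and 65.3% under normexp and to 91.4%, 84.7% and 76.3% under scaling to the median, which put the median of all probes at -0.33, -0.17 and -0.13.

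The sign turned in some settings for MYC, MAX, FOXO3 probe 2 and AREG probe 2. For MYC with hsa-miR-205-5p, the value was -0.057 under normexp, -0.0010 under quantile normalization and -0.21 under scaling to the median, and FOXO3 probe 2 gave -0.065 under the last. For MAX probe 1 with hsa-miR-205-5p it was 0.11 without replicate 1 and 0.11 without control replicate 1, and with hsa-miR-214-3p it was 0.00056 without replicate 2 and 0.038 without control replicate 1. MAX probe 3 with hsa-miR-214-3p gave -0.022 under scaling to the median, and -0.081 to 0.37 when 1 array was left out. When 1 array was left out, AREG probe 2 ran from -2.05 to 0.85 for hsa-miR-205-5p and from -2.58 to 0.32 for hsa-miR-214-3p, each time from the fit without control replicate 1 to that without control replicate 2. Between the precursors, MAX probe 1 gave -0.26 under normexp, -0.13 under quantile normalization, -0.15 under scaling to the median, -0.13 with the authors' log2 values, -0.0087 without hsa-miR-214-3p replicate 2. When 1 array was left out, it ran from -0.042 to 0.19, MAX probe 2 from -0.49 to 0.15 and MAX probe 3 from -0.016 to 0.53. Causes were not tested. normexp was planned on the mean spot signal but used the median, since the scanner output at hand held no mean. A block for slide or scan was not run because all arrays share 1 slide. In fits without 1 array, the array left alone was taken to vary as much as the rest.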
